A study of Homo sapiens with 4 samples.

Results

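Of 24 pairs of hashtags in a pool of OVCAR5 cells, 6 are described here: HTO2, HTO3, HTO4, HTO5 and HTO6, each together with HTO10, set against HTO1 together with HTO10. OVCAR5 is a human ovarian carcinoma cell line. A hashtag is an oligonucleotide on an antibody that marks the culture a cell came from, and HTO2 stands for the second of 10 hashtag rows in the deposited table. A cell belonged to a pair when its 2 highest tag counts were each at least 3 times the next one, it had at least 1000 genes and at most 20% of its counts were mitochondrial. The rule took 1443 cells, of 5298 that had any pair, 6408 that passed the filters on genes and mitochondrial counts, and 10660 barcodes in all. HTO2/HTO10 held 241 cells, HTO3/HTO10 264, HTO4/HTO10 240, HTO5/HTO10 272, HTO6/HTO10 208 and HTO1/HTO10 218.

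The pool combined 24 cultures of OVCAR5 at 6 levels of exposure to the medium of a tumor-cell and T-cell coculture: none, undiluted, and diluted 5, 25, 125 and 625 times. Each level was kept for 2, 6, 12 or 24 h. No source used here says which pair of tags marks which level or time, so none of the 6 pairs is given one. The 6 pairs and their order were chosen by measured levels of response genes, among them NFKBIA, IRF1, CXCL8 and TNFAIP3, and by the order of the tags, and HTO1/HTO10 was taken as their baseline in the same way. The levels of all genes along the 5 pairs are therefore a description and no test is given. Each pair is 1 culture, so the intervals cover counting error only. The 5 comparisons share HTO1/HTO10 and are not independent of one another.

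Activated T cells release interferon gamma and tumor necrosis factor, among other cytokines. Interferon gamma acts through JAK kinases and the transcription factors they activate on genes such as IRF1, whose product then turns on antigen presentation genes. Tumor necrosis factor and interleukin 1 free the transcription factor NF-kB from its inhibitor IkB-alpha, the product of NFKBIA, which NF-kB in turn induces. NF-kB targets include the neutrophil chemokines CXCL1, CXCL2, CXCL3 and CXCL8, the adhesion molecule ICAM1 and the feedback inhibitor TNFAIP3.

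The files count UMIs, molecular barcodes of which each RNA molecule receives 1 when it is captured, and levels are in CPM, the UMIs of a gene per 1000000 UMIs of the pair. The 6 pairs had totals between 3041849 and 3904112 UMIs, so that 3 counts came to between 0.768 and 0.986 CPM. Their cells had median depths between 14078 and 14795 UMIs and median mitochondrial shares between 9.54% and 10.3%. In the other 18 pairs these medians ran from 9389 to 13952 UMIs and from 8.67% to 13.8%. Of the epithelial markers, KRT18 lay between 1457 and 1688 CPM, KRT7 between 805 and 937, KRT8 between 625 and 754 and EPCAM between 36.0 and 54.3. KRT19 lay between 202 and 251 CPM and CLDN4 between 87.2 and 97.6. CDH1 had only 1.23 to 2.87 CPM and PAX8 0.920 to 3.16, while MUC16 had no count and WT1 had 1 UMI in the 6 pairs. Of 12 T cell markers, 10 had no count, among them CD3D, CD3E, TRAC and PTPRC, and IL7R had 89.1 to 111 CPM. Of 8 myeloid markers 3 had no count, and CD68 had 22.9 to 29.2 CPM. The summed fibroblast markers reached 4.09 CPM and the endothelial markers 0.272 CPM.

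A few cells stood apart. In the 6 pairs 35 cells held 10 or more UMIs of KRT81, a hair keratin gene, and they numbered 3 in HTO2/HTO10, 8 in HTO3/HTO10, 5 in HTO4/HTO10, 8 in HTO5/HTO10, 5 in HTO6/HTO10 and 6 in HTO1/HTO10. Pooled over the 6 pairs, LDHB, a subunit of lactate dehydrogenase, had 670 CPM in these 35 cells and 1.21 CPM in the other 1408. S100A9, a calcium-binding alarmin, had 788 CPM in them and 3.16 CPM in the others, and CXCL8 had 1989 CPM in them and 354 CPM in the others. The main results for CXCL8 are given with and without these cells. So are the differences in HTO2/HTO10 of the genes lower there, some of which rest on these cells.

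The given markers came in 2 shapes along the pairs. NFKBIA (ENSG00000100906, chr14:35401511-35404749, minus strand, GENCODE 29 on GRCh38) had 1435 CPM in HTO2/HTO10, 940 in HTO3/HTO10, 563 in HTO4/HTO10, 284 in HTO5/HTO10 and 117 in HTO6/HTO10, against 55.2 in HTO1/HTO10. Each pair was lower than the one before, and the counting intervals of neighbours did not overlap. The pairs were ordered by levels of such genes, NFKBIA among them, so this fall is no separate result. The ratio over HTO1/HTO10 was 26.0 in HTO2/HTO10 (95% counting interval 22.4 to 30.3) and 2.12 in HTO6/HTO10 (1.77 to 2.55). IRF1 (ENSG00000125347, chr5:132481609-132490798, minus strand) had 1715 CPM in HTO2/HTO10, 1658 in HTO3/HTO10, 1527 in HTO4/HTO10, 1237 in HTO5/HTO10 and 943 in HTO6/HTO10, against 89.2 in HTO1/HTO10. All 5 pairs stood far above HTO1/HTO10, and the ratio was 19.2 in HTO2/HTO10 (17.1 to 21.7) and still 10.6 in HTO6/HTO10 (9.37 to 12.0).

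TNFAIP3 (ENSG00000118503, chr6:137867188-137883312, plus strand), which encodes the NF-kB inhibitor A20, had 233 CPM in HTO2/HTO10, 209 in HTO3/HTO10, 137 in HTO4/HTO10, 52.5 in HTO5/HTO10 and 21.7 in HTO6/HTO10, against 12.0 in HTO1/HTO10. It followed the shape of NFKBIA, with a ratio of 19.5 (14.1 to 27.6) in HTO2/HTO10 and 1.82 (1.20 to 2.77) in HTO6/HTO10. CXCL8 (ENSG00000169429, chr4:73740506-73743716, plus strand), the gene of the chemokine interleukin 8, had 774 CPM in HTO2/HTO10, 817 in HTO3/HTO10, 437 in HTO4/HTO10, 144 in HTO5/HTO10 and 65.4 in HTO6/HTO10, against 80.3 in HTO1/HTO10. Its level was thus no higher in HTO6/HTO10 than in HTO1/HTO10. The KRT81-high cells held 72.9% of its UMIs in HTO6/HTO10 and 78.2% of them in HTO1/HTO10, but 3.49% in HTO2/HTO10. Without those cells CXCL8 had 754 CPM in HTO2/HTO10, 740 in HTO3/HTO10, 386 in HTO4/HTO10, 103 in HTO5/HTO10 and 18.3 in HTO6/HTO10, against 18.1 in HTO1/HTO10. The difference of log2(CPM + 10) between HTO2/HTO10 and HTO1/HTO10 was then 4.76, where it was 3.12 with all cells, and it was 2.01 in HTO5/HTO10, where it was 0.77 with all cells.

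**Figure D1:**
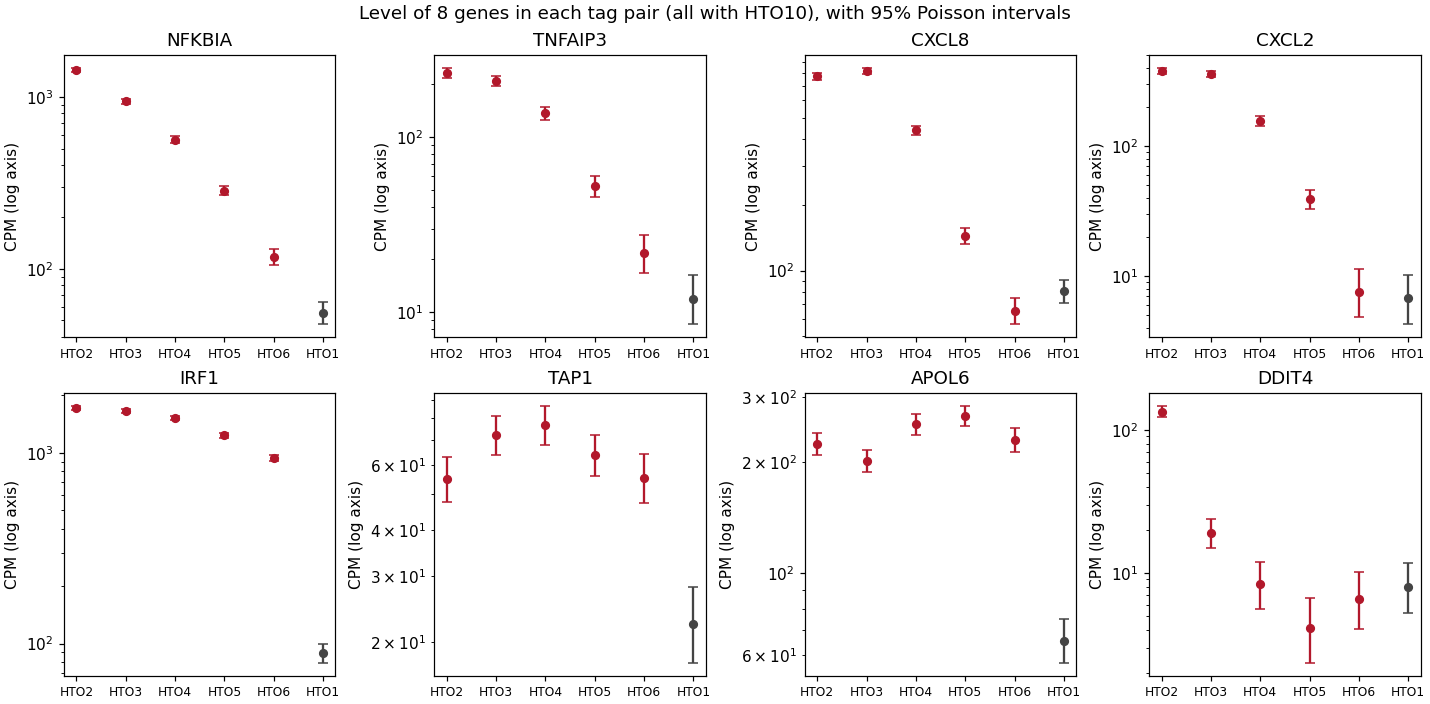
Level in CPM (log axes, a different range in each panel) of 8 genes in the 5 tag pairs (red) and in HTO1/HTO10 (grey), with exact 95% Poisson intervals. NFKBIA had 1435 CPM in HTO2/HTO10 and 117 CPM in HTO6/HTO10, while TAP1 lay between 55.0 and 76.6 CPM in all 5 pairs, and DDIT4 had 134 CPM in HTO2/HTO10 and at most 19.0 CPM in the rest of the 6.

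Sequences upstream of IRF1 and of NF-kB targets are shown because NF-kB and the interferon gamma pathway act through different short motifs. They are stretches before the RefSeq start of each gene in GRCh38.p14, 5′ to 3′ on the gene's strand, with matches in capitals: GGNNNTTCC on either strand for NF-kB (kappaB), and TTCNNNGAA for interferon gamma (the gamma-activated site, GAS). IRF1 holds a GAS match at chr5:132490874-132490912 (minus strand). The others hold kappaB matches: NFKBIA at chr14:35404807-35404999 (minus), CXCL8 at chr4:73740463-73740501 (plus), CXCL1 at chr4:73869300-73869363 (plus) and BIRC3 at chr11:102317270-102317308 (plus).
IRF1: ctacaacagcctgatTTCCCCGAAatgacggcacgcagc
NFKBIA: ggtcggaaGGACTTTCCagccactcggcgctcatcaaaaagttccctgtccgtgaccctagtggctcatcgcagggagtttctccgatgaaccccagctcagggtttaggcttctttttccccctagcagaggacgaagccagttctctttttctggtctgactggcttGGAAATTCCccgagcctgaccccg
CXCL8: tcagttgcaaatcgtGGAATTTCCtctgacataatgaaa
CXCL1: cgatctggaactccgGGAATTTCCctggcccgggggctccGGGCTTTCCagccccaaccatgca
BIRC3: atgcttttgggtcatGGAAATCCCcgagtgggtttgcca

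Genes were counted as higher or lower in a pair at a difference of 2-fold or more in CPM + 10, among the 5740 genes that averaged 20 CPM or more over the 6 pairs. A gene low in HTO1/HTO10 could pass this filter through the pairs where it was high, so counts of higher genes in the lists below partly follow from the filter. HTO2/HTO10 had 69 genes higher (1.20% of those measured), HTO3/HTO10 61 (1.06%), HTO4/HTO10 49 (0.854%), HTO5/HTO10 24 (0.418%) and HTO6/HTO10 10 (0.174%). Genes lower numbered 10 in HTO2/HTO10 (0.174%), 2 in HTO3/HTO10 (0.0348%) and 0 (0%) in each of HTO4/HTO10, HTO5/HTO10 and HTO6/HTO10. The median difference of log2(CPM + 10) over all 5740 genes was between -0.07 and -0.02 in the 5 pairs. By the same rule against HTO1/HTO10, the other 18 pairs had between 1 gene (HTO7/HTO10) and 259 genes (HTO3/HTO9) higher, with a median of 83, and between 3 and 473 lower, with a median of 38. The 5740 genes were chosen by their level in the 6 pairs alone. Genes expressed only in the other 18 pairs were thus not counted, and the numbers of those pairs may be too low. Among the 5740 genes, the higher genes of the 5 pairs fell within the range of the rest of the pool in number, and genes lower were few.

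In all, 76 genes were higher in at least 1 of the 5 pairs. Following the order HTO2 to HTO6, 13 of them were 2-fold or more higher in HTO2/HTO10 only, 11 as far as HTO3/HTO10, 23 as far as HTO4/HTO10, 14 as far as HTO5/HTO10 and 8 as far as HTO6/HTO10. The 8 were IRF1, ICAM1, BIRC3, BCL3, BATF2, HAPLN3, APOL6 and TAP1. The remaining 7, among them PARP14, CREB5, IRF9, HELZ2, IFNAR2 and RCAN1, passed 2-fold in a later pair but not in HTO2/HTO10. The highest of the 6 levels was in HTO2/HTO10 for 47 of the 76 genes, in HTO3/HTO10 for 21, in HTO4/HTO10 for 5 (PARP14, TAP1, HAPLN3, CCL2 and HELZ2), in HTO5/HTO10 for 2 (APOL6 among them) and in HTO6/HTO10 for IRF9.

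**Figure D2:**
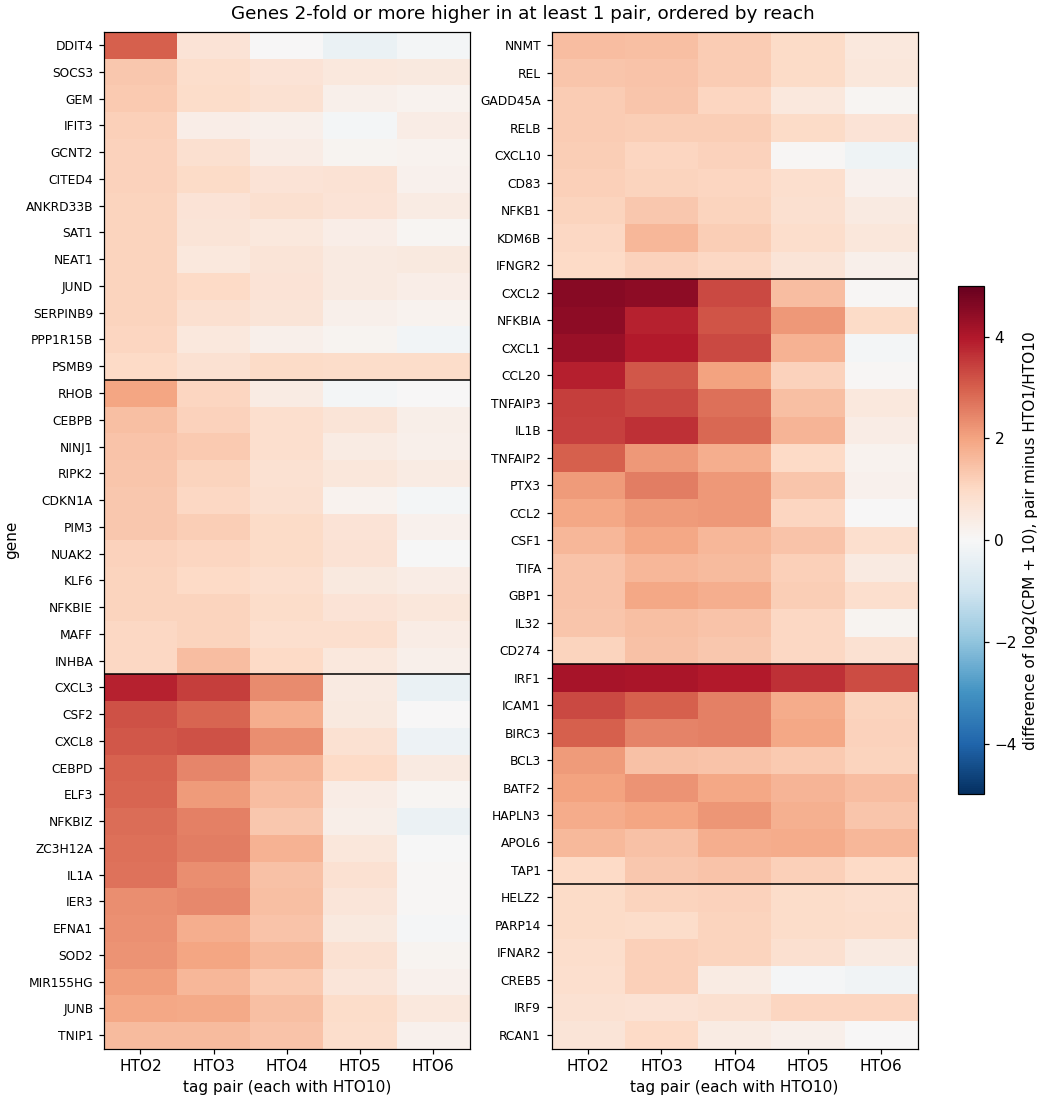
Difference of log2(CPM + 10) of each pair from HTO1/HTO10 (color scale) for genes that were 2-fold or more higher in at least 1 pair. Black lines part the genes by the last pair of an unbroken run at 2-fold or more (HTO2 at the top left, HTO6 at the lower right), and the last block holds genes that were not 2-fold higher in HTO2/HTO10.

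To compare shapes between genes of different level, the difference of a pair from HTO1/HTO10 was written as a percentage of the difference in HTO2/HTO10. Over the 69 genes higher in HTO2/HTO10 the median of this share was 85.8% in HTO3/HTO10, 55.9% in HTO4/HTO10, 30.8% in HTO5/HTO10 and 11.2% in HTO6/HTO10. The 69 were picked by the same difference that divides the share, so lower shares in the later pairs are favoured. The 7 genes that passed 2-fold only in a later pair are left out. In HTO6/HTO10 the share exceeded 50% for 7 of the 69. APOL6 had the highest share there, 104% (89.0% to 118%), and CXCL10 the lowest, -10.8% (-23.9% to 2.34%). IRF1 stood at 52.5% (49.95% to 55.0%), NFKBIA at 4.48% (3.43% to 5.53%), TNFAIP3 at 4.40% (1.52% to 7.29%) and CXCL8 at -2.15% (-4.09% to -0.203%). Without the KRT81-high cells the share of CXCL8 was 0.0261% (-0.896% to 0.948%).

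Inhibitors and feedback genes of NF-kB were higher and graded. Of 15 listed genes 10 were expressed above the filter of 20 CPM, and 8 of them were 2-fold higher in HTO2/HTO10, against 1.20% of all genes, and 1 (BCL3) was in HTO6/HTO10, against 0.174%. Their median difference of log2(CPM + 10) was 2.44 in HTO2/HTO10 and 0.20 in HTO6/HTO10, where the medians of all genes were -0.07 and -0.02. Their summed level was 2682 CPM in HTO2/HTO10, 1962 in HTO3/HTO10, 1312 in HTO4/HTO10, 756 in HTO5/HTO10 and 433 in HTO6/HTO10, against 322 in HTO1/HTO10, and HTO6/HTO10 kept 4.71% (3.44% to 5.98%) of the difference. Without NFKBIA and TNFAIP3, on which the choice of the pairs rested, the sum was 1014 CPM in HTO2/HTO10 and 294 CPM in HTO6/HTO10, against 255 CPM in HTO1/HTO10, and HTO6/HTO10 kept 5.202% (1.86% to 8.54%). NFKBIA and TNFAIP3 are also among the 8 genes counted, so that count partly follows from the choice. At least TNFAIP3, NFKBIZ and BCL3 had less than 20 CPM in HTO1/HTO10 and passed the filter through the pairs where they were high. TNFAIP2, a gene induced by tumor necrosis factor, had 316 CPM in HTO2/HTO10, 173 in HTO3/HTO10, 135 in HTO4/HTO10, 71.7 in HTO5/HTO10 and 36.5 in HTO6/HTO10, against 30.7 in HTO1/HTO10. NFKBIZ, which encodes a nuclear IkB protein, was at 139, 114, 45.0, 15.9 and 7.56 CPM in HTO2/HTO10 to HTO6/HTO10, against 11.3 CPM in HTO1/HTO10, so that its level in HTO6/HTO10 was no higher than in HTO1/HTO10. BCL3, another nuclear IkB protein gene, differed less among the pairs, with 56.1, 32.4, 31.3, 28.2 and 22.7 CPM, against 5.21 CPM in HTO1/HTO10.

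The subunits of NF-kB differed less than its inhibitors. REL, RELB and NFKB1 were 2-fold higher in HTO2/HTO10, HTO3/HTO10 and HTO4/HTO10, against 1.20%, 1.06% and 0.854% of all genes. No subunit was in HTO5/HTO10 or HTO6/HTO10, against 0.418% and 0.174%. The median difference of 4 measured subunits was 1.18 on the log2 scale in HTO2/HTO10 and 0.50 in HTO6/HTO10. NFKB1 had 85.5 CPM in HTO2/HTO10, 105 in HTO3/HTO10, 87.5 in HTO4/HTO10, 68.4 in HTO5/HTO10 and 50.6 in HTO6/HTO10, against 34.6 in HTO1/HTO10. RELA, the most transcriptionally active subunit, lay between 60.4 and 72.7 CPM in the 5 pairs, against 68.4 CPM in HTO1/HTO10. The 5 subunits summed to 270 CPM in HTO2/HTO10 and 178 CPM in HTO6/HTO10, against 135 CPM in HTO1/HTO10, and HTO6/HTO10 kept 31.8% (18.3% to 45.2%) of the difference.

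The neutrophil chemokines, summed, had the largest ratio of HTO2/HTO10 over HTO1/HTO10 of the lists described here, 16.8 (15.1 to 18.7). They kept 91.7% of the difference in HTO3/HTO10, where the NF-kB inhibitors kept 69.5%. All 4 measured members, CXCL1, CXCL2, CXCL3 and CXCL8, were 2-fold higher in HTO2/HTO10, HTO3/HTO10 and HTO4/HTO10, against 1.20%, 1.06% and 0.854% of all genes. Of the 4, 2 (CXCL1 and CXCL2) were in HTO5/HTO10, against 0.418%, and none was in HTO6/HTO10, against 0.174%. CXCL1, CXCL2 and CXCL3 had less than 20 CPM in HTO1/HTO10 and passed the filter through the pairs where they were high. The choice of the pairs rested on CXCL8, so the count of all 4 partly follows from the filter and the choice. Without the KRT81-high cells CXCL8 passed 2-fold in HTO5/HTO10 too, with a log2 difference of 2.01. Their list summed to 1871 CPM in HTO2/HTO10, 1724 in HTO3/HTO10, 893 in HTO4/HTO10, 262 in HTO5/HTO10 and 91.4 in HTO6/HTO10, against 111 in HTO1/HTO10. The log2 ratio of this sum in HTO2/HTO10 was 3.95, and 5.15 without the KRT81-high cells. In HTO6/HTO10 it was 0.02 without them. Without CXCL8, on which the choice of the pairs rested, the list summed to 1097 CPM in HTO2/HTO10 and 26.0 CPM in HTO6/HTO10, against 31.0 CPM in HTO1/HTO10. The median difference of the 4 was 4.09 on the log2 scale in HTO2/HTO10 and -0.19 in HTO6/HTO10. CXCL2 had 382, 362, 156, 38.9 and 7.56 CPM in HTO2/HTO10 to HTO6/HTO10, against 6.74 CPM in HTO1/HTO10, a ratio of 56.6 (37.2 to 90.6) in HTO2/HTO10 and 1.12 (0.597 to 2.11) in HTO6/HTO10. CXCL1 had 401, 309, 193, 58.1 and 8.88 CPM, against 10.4 CPM in HTO1/HTO10. CXCL1, CXCL2 and CXCL3 are close in sequence, so reads may have been shared among them. For CXCL1 and CXCL2 the levels of HTO6/HTO10 and HTO1/HTO10 lay within counting error.

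Other secreted factors were also higher in HTO2/HTO10 than in HTO1/HTO10, though not all had their highest level there. CCL20, a chemokine for dendritic cells and lymphocytes, had 185 CPM in HTO2/HTO10, 101 in HTO3/HTO10, 43.3 in HTO4/HTO10, 18.9 in HTO5/HTO10 and 3.62 in HTO6/HTO10, against 3.07 in HTO1/HTO10. IL1B, the gene of interleukin 1 beta, had 183, 223, 123, 49.4 and 13.8 CPM, against 8.28 CPM in HTO1/HTO10, and was higher in HTO3/HTO10 than in HTO2/HTO10. CSF2, the gene of GM-CSF, had 119, 94.4, 39.0, 9.48 and 4.27 CPM, against 3.98 CPM in HTO1/HTO10. PTX3, a secreted pattern recognition protein, peaked in HTO3/HTO10 at 619 CPM, with 457 CPM in HTO2/HTO10 and 114 CPM in HTO6/HTO10, against 96.6 CPM in HTO1/HTO10. Of 22 genes listed as cytokines and growth factors 11 were measured, with a median difference of 0.63 on the log2 scale in HTO2/HTO10. There 5 were 2-fold higher (CSF1, CSF2, IL1A, IL1B and IL32), against 1.20% of all genes. At least CSF2 and IL1B had less than 20 CPM in HTO1/HTO10 and passed the filter through the pairs where they were high, so this count partly follows from the filter. The list of other chemokines had 3 measured members, CCL2, CCL20 and CXCL10. All 3 were 2-fold higher in HTO2/HTO10, against 1.20% of all genes, and none in HTO6/HTO10, against 0.174%. CCL20 passed the filter in the same way as CSF2 and IL1B, so this count too partly follows from the filter.

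Among adhesion and survival genes, 6 of 16 measured were 2-fold higher in HTO2/HTO10, HTO3/HTO10 and HTO4/HTO10, against 1.20%, 1.06% and 0.854% of all genes. ICAM1 and BIRC3 were so in HTO5/HTO10 and HTO6/HTO10 as well, against 0.418% and 0.174% of all genes. The median difference of the 16 was 0.53 on the log2 scale in HTO2/HTO10 and 0.04 in HTO6/HTO10. ICAM1, which leukocytes bind through integrins, had 598 CPM in HTO2/HTO10, 483 in HTO3/HTO10, 343 in HTO4/HTO10, 215 in HTO5/HTO10 and 124 in HTO6/HTO10, against 52.1 in HTO1/HTO10. BIRC3, an inhibitor of apoptosis downstream of NF-kB, had 378, 262, 269, 174 and 97.6 CPM, against 38.3 CPM in HTO1/HTO10. HTO6/HTO10 thus kept 13.2% (10.5% to 15.9%) of the ICAM1 difference and 17.5% (13.7% to 21.3%) of that of BIRC3. SOD2, the mitochondrial superoxide dismutase, had 339, 285, 218, 117 and 72.7 CPM, against 64.4 CPM in HTO1/HTO10.

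Among early transcription factor genes, JUNB and CEBPD were higher, while FOS and EGR1 stayed at a few CPM. Of 41 genes in the list of AP-1 and early growth response 23 were measured. None was 2-fold higher in HTO5/HTO10 or HTO6/HTO10, against 0.418% and 0.174% of all genes, and 7 were in HTO2/HTO10, against 1.20%. They were JUNB, JUND, MAFF, IER3, KLF6, CEBPB and CEBPD, and the median difference of the 23 was 0.66 on the log2 scale. CEBPD, a factor of acute inflammation, had 294, 205, 118, 68.4 and 43.4 CPM in HTO2/HTO10 to HTO6/HTO10, against 29.4 CPM in HTO1/HTO10. IER3 had 658, 702, 375, 198 and 129 CPM, against 125 CPM in HTO1/HTO10. FOS lay between 0.986 and 2.29 CPM and EGR1 between 2.87 and 6.52 CPM in the 5 pairs, against 1.84 CPM of FOS and 2.76 CPM of EGR1 in HTO1/HTO10, and both were chosen for mention after their values were seen.

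Among interferon-induced genes, APOL6 and IRF9 differed at least as much in HTO6/HTO10 as in HTO2/HTO10, while IRF1, BATF2 and CD274 differed less in HTO6/HTO10. APOL6, an interferon-induced apolipoprotein L gene, had 224, 201, 253, 267 and 230 CPM in HTO2/HTO10 to HTO6/HTO10, against 65.6 CPM in HTO1/HTO10, and its ratio over HTO1/HTO10 lay between 3.07 (2.64 to 3.59) in HTO3/HTO10 and 4.07 (3.51 to 4.73) in HTO5/HTO10.

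BATF2, an interferon-induced transcription factor, had 69.7, 84.3, 65.7, 55.1 and 47.7 CPM in HTO2/HTO10 to HTO6/HTO10, against 9.81 CPM in HTO1/HTO10. IRF9, a subunit of an interferon-activated transcription factor complex, was at 19.6, 18.8, 20.9, 26.9 and 27.3 CPM, against 7.66 CPM in HTO1/HTO10, and its highest level was in HTO6/HTO10. The list of IRF, STAT and JAK genes summed to 2358 CPM in HTO2/HTO10, 2337 in HTO3/HTO10, 2222 in HTO4/HTO10, 1895 in HTO5/HTO10 and 1557 in HTO6/HTO10, against 500 in HTO1/HTO10. IRF1, a marker the choice of the pairs rested on, made up most of the sum in the 5 pairs. Of the 10 measured members 2 were 2-fold higher in HTO2/HTO10, against 1.20% of all genes, and 3 in HTO6/HTO10, against 0.174%. The median difference of the 10 was 0.57 on the log2 scale in HTO2/HTO10 and 0.29 in HTO6/HTO10. Without IRF1 the list summed to 642 CPM in HTO2/HTO10 and 614 CPM in HTO6/HTO10, against 411 CPM in HTO1/HTO10, ratios of 1.56 (1.46 to 1.67) and 1.496 (1.39 to 1.61). HTO6/HTO10 kept 56.9% (54.0% to 59.8%) of the difference of the whole list and 88.0% (72.4% to 104%) of that without IRF1. It kept 76.9% (68.5% to 85.4%) of that of 35 listed interferon gamma effectors, of which 33 were found in the data. Of 14 measured, 3 were 2-fold higher in HTO2/HTO10 (CD274, APOL6 and BATF2), against 1.20% of all genes. CD274 and BATF2 had less than 20 CPM in HTO1/HTO10 and passed the filter through the pairs where they were high. The median difference of these 14 was 0.58 on the log2 scale in HTO2/HTO10 and 0.43 in HTO6/HTO10. CD274, which encodes the checkpoint ligand PD-L1, had 31.3, 41.5, 38.4, 29.2 and 22.4 CPM, against 8.89 CPM in HTO1/HTO10.

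**Figure D3:**
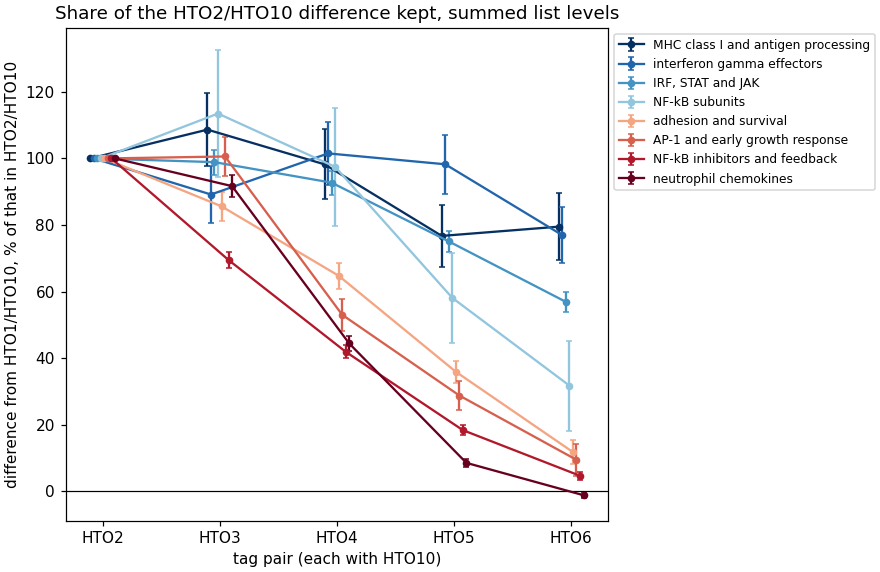
Difference of 5 pairs from HTO1/HTO10 as a percentage of the difference in HTO2/HTO10 (set to 100), for the summed CPM of 8 gene lists, with 95% counting intervals from HTO3 on. In HTO6/HTO10 the neutrophil chemokines and the NF-kB inhibitors lay between -1.13% and 4.71%, and the IRF, STAT and JAK genes, most of whose sum is IRF1, at 56.9%. Without the KRT81-high cells the neutrophil chemokines were at 0.0408% (-0.538% to 0.620%).

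Antigen presentation genes, summed, were slightly higher in all 5 pairs. TAP1, a subunit of the peptide transporter, had 55.0, 72.01, 76.6, 63.8 and 55.2 CPM in HTO2/HTO10 to HTO6/HTO10, against 22.4 CPM in HTO1/HTO10. PSMB9, an immunoproteasome subunit that shares its promoter region with TAP1, had 90.2, 74.1, 86.6, 85.3 and 84.8 CPM, against 39.8 CPM in HTO1/HTO10. B2M, the light chain of MHC class I, lay between 2217 and 2402 CPM in the 5 pairs, against 1931 CPM in HTO1/HTO10. The MHC class I list summed to 4677 CPM in HTO2/HTO10 and 4484 CPM in HTO6/HTO10, against 3734 CPM in HTO1/HTO10, ratios of 1.25 (1.22 to 1.28) and 1.20 (1.17 to 1.23), and TAP1 and PSMB9 were its only members at 2-fold, in HTO2/HTO10 both and in HTO6/HTO10 TAP1 alone. Both genes were near the line in HTO2/HTO10, with log2 differences of 1.01, and without the KRT81-high cells these were 0.95 for TAP1 and 0.96 for PSMB9. The median difference of the 13 measured members of the list was 0.31 on the log2 scale in HTO2/HTO10 and 0.23 in HTO6/HTO10. Of all genes, 1.20% were 2-fold higher in HTO2/HTO10 and 0.174% in HTO6/HTO10. The HLA genes of the list are near-identical in sequence, so their reads may be shared.

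Several interferon-induced genes had far lower levels in these pairs than the highest of the rest of the pool. MHC class II genes summed to between 36.0 and 46.7 CPM in the 5 pairs, against 32.8 CPM in HTO1/HTO10, while the other 18 pairs reached 2374 CPM. CXCL10, a T cell chemokine, had 150, 135, 140, 61.5 and 48.0 CPM in HTO2/HTO10 to HTO6/HTO10, against 57.9 CPM in HTO1/HTO10, and up to 3896 CPM in the other pairs. GBP1, a guanylate-binding protein gene, had 62.4, 92.1, 83.5, 53.8 and 38.5 CPM, against 16.9 CPM in HTO1/HTO10, and up to 935 CPM in the other pairs. IDO1, the tryptophan-degrading enzyme, lay between 16.3 and 27.9 CPM in the 5 pairs, against 17.2 CPM in HTO1/HTO10, where the other pairs reached 2818 CPM.

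The reverse held for 30 of the 76 genes, whose highest level among all 24 pairs was in 1 of these 6. EFNA1, an ephrin ligand, reached 57.5 CPM in HTO2/HTO10 and at most 7.96 CPM in the other 18 pairs, and ELF3, an epithelial transcription factor, reached 78.7 CPM, against at most 25.6 CPM. CREB5 reached 58.4 CPM in HTO3/HTO10 and at most 17.5 CPM in the others, TNFAIP3 233 CPM in HTO2/HTO10 and at most 93.5, and NFKBIA 1435 CPM and at most 680. IRF1, with 1715 CPM, was only slightly above the highest other pair, HTO3/HTO9, with 1682 CPM. The choice of the 6 pairs rested on such genes, and the 76 were picked for being high in them, so these ranks are no separate result. The share of all measured genes with their highest level in these pairs is not given here, so the 30 have no baseline.

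Several genes differed more between HTO2/HTO10 and HTO3/HTO10 than between later neighbours. DDIT4, a stress-induced inhibitor of mTORC1, had 134 CPM in HTO2/HTO10, 19.0 in HTO3/HTO10, 8.32 in HTO4/HTO10, 4.10 in HTO5/HTO10 and 6.57 in HTO6/HTO10, against 7.97 in HTO1/HTO10. Its ratio over HTO1/HTO10 was 16.8 (11.4 to 26.1) in HTO2/HTO10 and 2.39 (1.51 to 3.90) in HTO3/HTO10. IFIT3, an antiviral gene induced by interferons, had 143 CPM in HTO2/HTO10 and between 53.0 and 78.2 CPM in the next 4 pairs, against 57.3 CPM in HTO1/HTO10. ISG15, a ubiquitin-like antiviral protein gene, had 414 CPM in HTO2/HTO10 and between 243 and 271 CPM in the next 4, against 235 CPM in HTO1/HTO10. RHOB, a small GTPase gene, had 97.5, 48.3, 26.4, 15.4 and 18.1 CPM in HTO2/HTO10 to HTO6/HTO10, against 17.5 CPM in HTO1/HTO10.

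The genes lower by 2-fold or more were 10 in number, all in HTO2/HTO10, and ID1 and ID2 also in HTO3/HTO10. ID1 and ID2, inhibitors of differentiation that BMP signalling induces, were graded. ID1 had 128 CPM in HTO2/HTO10, 163 in HTO3/HTO10, 215 in HTO4/HTO10, 246 in HTO5/HTO10 and 307 in HTO6/HTO10, against 355 in HTO1/HTO10. ID2 had 40.9, 49.1, 60.2, 83.8 and 108 CPM, against 130 CPM in HTO1/HTO10. HJURP, a centromere chaperone, had 44.7, 59.0, 83.2, 80.7 and 113 CPM, against 124 CPM in HTO1/HTO10, and the list of 52 G2/M genes to which it belongs summed to 7493 CPM in HTO2/HTO10 and 8938 CPM in HTO6/HTO10, against 8847 CPM in HTO1/HTO10.

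Others were lower mainly in HTO2/HTO10. HSPA8, the constitutive HSP70 chaperone, had 561 CPM there and between 1206 and 1332 CPM in the next 4 pairs, against 1410 CPM in HTO1/HTO10, a ratio of 0.398 (0.378 to 0.420) in HTO2/HTO10. The other 14 measured heat shock genes did not reach 2-fold in any pair. DKK1, a secreted Wnt inhibitor, had 57.5 CPM in HTO2/HTO10 and between 90.8 and 116 CPM in the next 4, against 150 CPM in HTO1/HTO10. KRT81-high cells held 27.8% of the DKK1 UMIs in HTO1/HTO10 and 12.3% of them in HTO2/HTO10. KRT81, LDHB and S100A9 were also counted lower, and HTO2/HTO10 held the fewest KRT81-high cells. Without those cells the difference of log2(CPM + 10) in HTO2/HTO10 was -0.15 for KRT81, -0.13 for LDHB and -0.18 for S100A9, that of MYC was -0.89, and 6 genes were lower by 2-fold.

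In the remaining lists few members passed 2-fold, where 1.20% of all genes were higher and 0.174% lower in HTO2/HTO10. Targets of TGF-beta summed to 1010 CPM in HTO2/HTO10 and 1508 CPM in HTO6/HTO10, against 1623 CPM in HTO1/HTO10, with ID1 and ID2 as the members past 2-fold of 12 measured. Antiviral interferon-stimulated genes summed to 3028 CPM in HTO2/HTO10 and 2600 CPM in HTO6/HTO10, against 2211 CPM in HTO1/HTO10, with IFIT3 past 2-fold in HTO2/HTO10 of 16 measured. Complement and acute phase genes had a ratio of 1.75 (1.66 to 1.85) in HTO2/HTO10 and 0.911 (0.855 to 0.971) in HTO6/HTO10, with PTX3 past 2-fold. The ratio in HTO2/HTO10 was 1.41 for cell death genes (RIPK2 past 2-fold), 1.40 for ER and integrated stress genes (DDIT4), 1.16 for SOCS and interferon feedback genes (SOCS3) and 2.73 for the GBP family (GBP1). It was 1.09 for mitochondrially encoded genes, 1.04 for cholesterol synthesis, 0.984 for hypoxia and glycolysis, 0.965 for S phase and 0.987 for housekeeping genes, and no member of these 5 lists passed 2-fold in any pair.

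**Figure D4:**
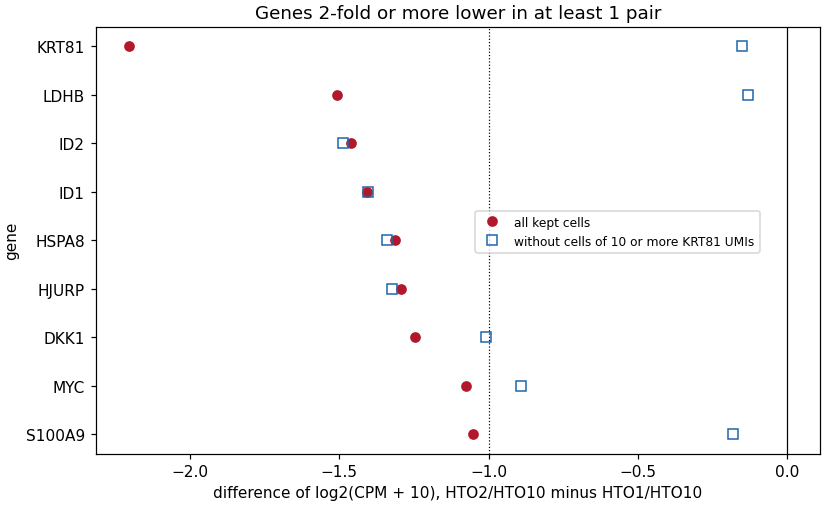
Difference of log2(CPM + 10), HTO2/HTO10 minus HTO1/HTO10, of genes that were 2-fold or more lower, with all kept cells (red circles) and without cells of 10 or more KRT81 UMIs (blue squares). The dotted line is 2-fold, and KRT81, LDHB and S100A9 lie near 0 without those cells.

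In single cells the pairs differed both in the share of cells with a UMI and in the number of UMIs a cell. Cells were thinned to 3000 UMIs, which left out 1 to 3 cells a pair. IRF1 then had a UMI in 98.3% of cells in HTO2/HTO10, 98.1% in HTO3/HTO10, 93.7% in HTO4/HTO10, 91.8% in HTO5/HTO10 and 89.9% (84.9% to 93.6%) in HTO6/HTO10, against 16.7% (12.0% to 22.3%) in HTO1/HTO10. NFKBIA had one in 94.6%, 88.5%, 77.7%, 49.8% and 26.6% of cells in HTO2/HTO10 to HTO6/HTO10, against 14.4% in HTO1/HTO10. Before thinning these shares were 99.2% for IRF1 and 99.6% for NFKBIA in HTO2/HTO10, 99.5% for IRF1 and 65.9% for NFKBIA in HTO6/HTO10, and 56.4% for IRF1 and 45.9% for NFKBIA in HTO1/HTO10. No cell type of the pool should lack these genes, and RNA free in the droplets was not measured here, so how much of any share is background is not known. The shares in HTO1/HTO10, a culture with its own expression, stand beside the others for comparison.

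The median cell had 5 IRF1 UMIs of 3000 in HTO2/HTO10 and 2 in HTO6/HTO10, against 0 in HTO1/HTO10, and 4 NFKBIA UMIs in HTO2/HTO10 and 0 in HTO6/HTO10, against 0 in HTO1/HTO10. Cells with IRF1 but no NFKBIA UMI made up 5.42% in HTO2/HTO10, 11.1% in HTO3/HTO10, 20.6% in HTO4/HTO10, 46.1% in HTO5/HTO10 and 65.2% in HTO6/HTO10, against 12.0% in HTO1/HTO10. Cells with both made up 92.9% in HTO2/HTO10 and 24.6% in HTO6/HTO10, against 4.63% in HTO1/HTO10. Both genes were used to choose the pairs, and 0 UMIs at this depth do not show that a cell lacks the RNA, so these shares are a description of detection.

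CXCL8 had a UMI in 70.0% of thinned cells in HTO2/HTO10, 80.5% in HTO3/HTO10, 53.4% in HTO4/HTO10, 25.3% in HTO5/HTO10 and 7.25% in HTO6/HTO10, against 5.09% in HTO1/HTO10. The variance of its counts was 2.49 times their mean in HTO2/HTO10, against 6.32 times in HTO1/HTO10, where the 10% of cells with the most CXCL8 held 97.3% of its UMIs. KRT81-high cells held 78.2% of the unthinned CXCL8 UMIs in HTO1/HTO10. Without those cells the variance of thinned counts was 2.04 times the mean in HTO2/HTO10, against 1.47 times in HTO1/HTO10, and the share of cells with a UMI was 69.6% in HTO2/HTO10, against 2.86% in HTO1/HTO10. TNFAIP3 had a UMI in 47.1%, 41.2%, 23.5%, 13.4% and 5.31% of cells in HTO2/HTO10 to HTO6/HTO10, against 5.09% in HTO1/HTO10, and its variance was 1.23 times the mean in HTO2/HTO10.

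Summed over a list, the UMIs of the IRF, STAT and JAK genes exceeded the 95th percentile of HTO1/HTO10 cells in 76.7% of cells in HTO2/HTO10, 69.8% in HTO3/HTO10, 69.3% in HTO4/HTO10, 60.2% in HTO5/HTO10 and 50.2% in HTO6/HTO10, against 1.85% in HTO1/HTO10. For the NF-kB inhibitors the shares were 89.6%, 74.4%, 47.5%, 19.7% and 5.31%, against 4.63% in HTO1/HTO10. For the neutrophil chemokines they were 85.8%, 87.4%, 58.4%, 15.99% and 1.45%, against 4.63% in HTO1/HTO10. These lists hold markers the choice of the pairs rested on, and cells of 1 culture are not replicates, so the shares are a description. In HTO6/HTO10 the shares for the NF-kB inhibitors and the neutrophil chemokines were close to or below those in HTO1/HTO10. The share was above that in HTO1/HTO10 for the IRF, STAT and JAK genes. Without IRF1 this last list exceeded its own line in 15.8% of cells in HTO2/HTO10 and 13.5% (9.18% to 19.0%) in HTO6/HTO10, against 3.24% (1.31% to 6.56%) in HTO1/HTO10. Without NFKBIA and TNFAIP3 the NF-kB inhibitors did so in 36.7% of cells in HTO2/HTO10 and 2.42% in HTO6/HTO10, against 2.78% in HTO1/HTO10. Without CXCL8 the neutrophil chemokines did so in 72.9% of cells in HTO2/HTO10 and 0.483% in HTO6/HTO10, against 1.85% in HTO1/HTO10. With the KRT81-high cells also left out, any UMI exceeded the line. The shares were then 91.1% in HTO2/HTO10 and 5.94% (3.11% to 10.1%) in HTO6/HTO10, against 5.24% (2.64% to 9.18%) in HTO1/HTO10.

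**Figure D5:**
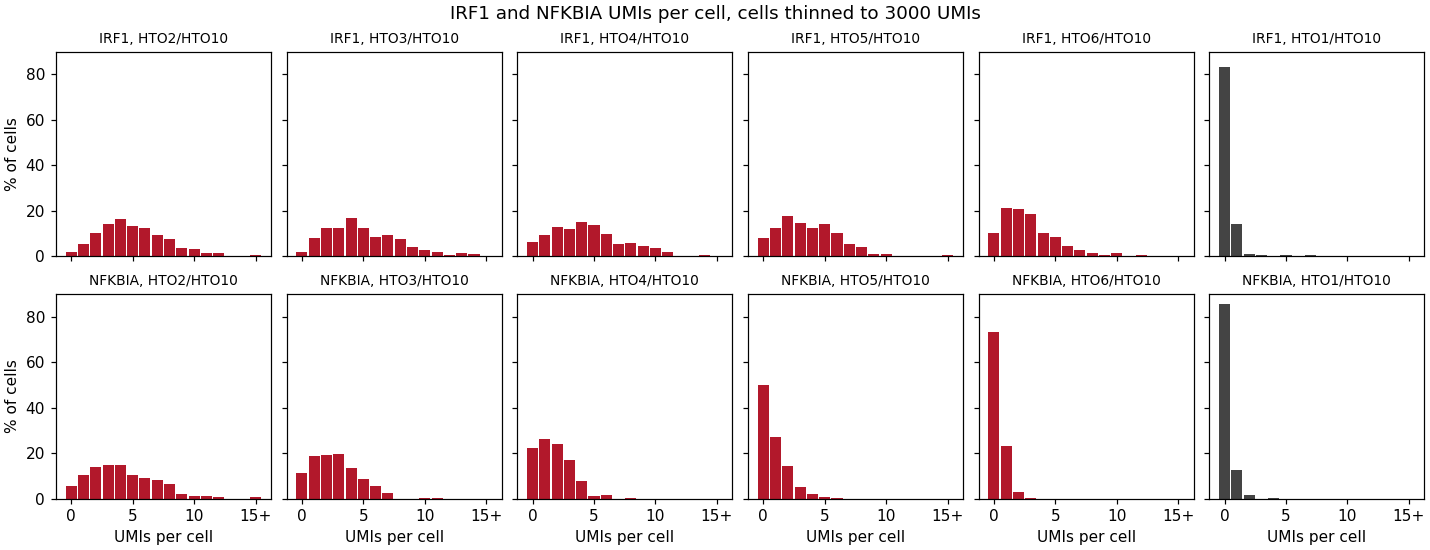
Share of cells (%) by the number of IRF1 (top) and NFKBIA (bottom) UMIs per cell after thinning to 3000 UMIs, in the 5 tag pairs (red) and in HTO1/HTO10 (grey), with 15 or more in the last bar. IRF1 stays spread over several UMIs through HTO6/HTO10, where 26.6% of cells have an NFKBIA UMI.

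The 250 bases before the RefSeq start were searched for both motifs on both strands, for 62 of the 76 genes with a promoter in the table. A kappaB match was present in 32 of them (51.6%), against 21.2% of the promoters of 4687 measured genes and 17.1% of all 27305. By reach the share was 18.2% of 11 genes that were 2-fold higher in HTO2/HTO10 only, 44.4% of 9 as far as HTO3/HTO10, 50% of 18 as far as HTO4/HTO10, 83.3% of 12 as far as HTO5/HTO10 and 85.7% of 7 as far as HTO6/HTO10. A GAS match was present in 8 (12.9%), against 5.87% of measured and 6.78% of all promoters. By reach its share was 0%, 0%, 11.1%, 16.7% and 28.6% from HTO2/HTO10 only to as far as HTO6/HTO10. The searched stretch of APOL6 held neither motif. Matches occurred in genes of both shapes: TAP1 held a kappaB match, and ICAM1 held both motifs. A match says only that these letters occur there.

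Near the limits of the rule, 51 cells had a second tag 3 to 4 times the third and 71 cells 2 to 3 times. IRF1 had 966 CPM in the 51 and 998 CPM in the 71. Between 18% and 20% of mitochondrial counts lay 27 cells, and 10 lay between 20% and 22%. With 1000 to 1250 genes there were 5 cells, and with 750 to 1000 there were 14.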

How the data were processed

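OVCAR5 cells in 1 pool were measured by 3′ RNA sequencing of single cells in droplets, with cell hashing, in 2 gene-expression and 2 hashing libraries. The authors deposited 1 matrix of raw UMI counts for 36602 genes and 10 hashtags, and the file headers name Cell Ranger 5.0.1. Version 2.1.1 and the build GRCh38 stand in the submitters' processing notes. How cells were called, and which annotation was used, is not given in the sources used here. No barcode occurred more than once.

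Cells were filtered and given tag pairs as the report states. A doublet of 2 pairs carries at least 3 tags and mostly fails the margin of 3, doublets within a pair remain, and no doublet caller was run. Counts were summed per pair and divided by the total. Genes were compared by the difference of log2(CPM + 10) from HTO1/HTO10, with 2-fold as the line, for genes averaging 20 CPM or more, and with no test. Intervals of 95% are exact Poisson for levels, conditional binomial for ratios, exact Clopper-Pearson for shares and delta-method for kept shares. The calculations were tested on simulated data. Python 3.11.15, numpy 2.4.6, scipy 1.17.1 and pandas 2.3.3 were used. Coordinates are from GENCODE 29, matched by identifier for 34616 genes, and promoters from RefSeq, matched by symbol.

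The tag pairs, the 25 gene lists and the rule for named genes were chosen with earlier results of these data known. Named genes are the 4 markers, the 20 most raised and 10 most lowered in HTO2/HTO10, the top members of each list by level and difference, those leading each reach or peaking in another pair, and those most above the other 18 pairs; any other gene was named after its values were seen. Alternatives concerned the pseudocount, the filter on low genes, scaling, weighting of cells, tag margin, cell filters and KRT81-high cells. Leaving the 4 markers out of 3 lists was added after seeing the data. Results of 2 genes are not reported here.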

Additional observations from a re-analysis of the deposited data

How the results depend on the processing

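Of 110 counts of genes past 2-fold recomputed under 11 alternatives, 95 stayed within 1.5 times the reported count. Of 60 marker and list differences 4 changed sign, none of them past 2-fold: heat shock genes in HTO3/HTO10 (-0.04 reported, 0.02 by median-of-ratios scaling) and HTO5/HTO10 (-0.04 and 0.0020), CXCL8 in HTO6/HTO10 (-0.26, and 0.0098 without KRT81-high cells) and neutrophil chemokines in HTO6/HTO10 (-0.26 and 0.02). Leaving the 4 markers out of their lists, an alternative chosen after seeing the data, gave log2 ratios in HTO2/HTO10 of 0.63 for IRF, STAT and JAK genes, 1.95 for NF-kB inhibitors and 4.76 for neutrophil chemokines. With a pseudocount of 5 CPM, 5 genes were lower in HTO3/HTO10 and 1 in HTO4/HTO10, and with 20 CPM, 14 were higher in HTO5/HTO10. With no filter on low genes 4 were lower in HTO3/HTO10. With a mean of at least 50 CPM, which leaves fewer genes, 36 were higher in HTO2/HTO10, 33 in HTO3/HTO10 and 30 in HTO4/HTO10. Weighting cells equally, and tag margins of 2 and of 5 times, each gave 1 gene lower in HTO4/HTO10. Stricter cell filters, 2000 genes and 10% of mitochondrial counts, gave 5 lower in HTO3/HTO10, 1 in HTO4/HTO10 and 1 in HTO6/HTO10. Without KRT81-high cells 6 were lower in HTO2/HTO10 and 1 in HTO4/HTO10. The cause of shifts other than that of the filter was not tested. Over the alternatives the difference of log2(CPM + 10) in HTO2/HTO10 lay between 4.27 and 4.74 for NFKBIA, 3.87 and 4.46 for IRF1, 2.99 and 3.81 for TNFAIP3 and 2.43 and 4.76 for CXCL8. With 1 culture a pair, variation between cultures is unknown, and a level under 0.986 CPM cannot be told from 0 counts in every pair.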
